A study of Mus musculus with 6 samples.

Results

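The mRNAs of 10 inflammatory and regulatory cytokines were examined in spleen leukocytes labelled CD8a+, 10 of the 44678 genes in the deposited tables. The genes were Il1b, Tnf, Il6, Il12a, Il12b, Il10, Il15, Il18, Il16 and Tgfb1, chosen by name and found in the tables by their Ensembl identifiers, and each of the 10 names matched 1 identifier. There were 3 WT libraries (C57BL/6J mice) and 3 KO libraries, from mice of the C57BL/6J background that lack the miR-144/451 locus. The mice were untreated, and the KO is a deletion in the germ line, so every cell type of the spleen lacks the microRNAs. CD8a is carried by CD8+ T cells and also by a subset of DCs, and the labels do not say which of these was meant. The question was whether the mRNAs of these cytokines differ between KO and WT mice in the absence of a stimulus. None of the 8 cytokines with enough counts passed the test, and Il6 and Il10 were too low to compare.

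Cytokines of this group carry signals between leukocytes. IL-1β and IL-18 are made as inactive precursors that caspase-1 cuts in the inflammasome, TNF-α and IL-6 are early products of activated macrophages and DCs, and IL-12, a pair of the Il12a (p35) and Il12b (p40) chains, directs T and NK cells towards IFN-γ. IL-15 sustains memory CD8+ T cells and NK cells, IL-16 is released from a precursor in lymphocytes and binds CD4, and IL-10 and TGF-β1 restrain immune responses. Many of these mRNAs are short-lived, because AU-rich elements in their 3′-UTRs are bound by decay factors such as ZFP36.

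Libraries held between 8143971 and 8876570 counts, and 3 counts corresponded to between 0.342 and 0.372 CPM, which are counts scaled by library total and edgeR's TMM factors. Markers of several cell types were present besides those of CD8+ T cells. T cell markers, led by Cd8a and Lck, summed to between 1920.1 and 3643 CPM, and B cell markers, led by Cd79a and Pax5, summed to between 996 and 2318 CPM. Cd8a had 902 ± 184 CPM in WT against 730 ± 279 CPM in KO, and Cd3e had 360 ± 53.2 against 293 ± 89.4 CPM (SD of 3 libraries each). The log2 fold change of KO over WT was below 0 for all 7 T cell markers (median -0.31), and 0 of them had an adjusted p-value under 0.05 in edgeR's test. For B cell and neutrophil markers the libraries did not divide by genotype. WT1, KO1 and KO2 had 1987, 2069 and 2318 CPM of B cell markers and 880, 901 and 1068 CPM of neutrophil markers (S100a9 and S100a8 at their head), whereas WT2, WT3 and KO3 had 1179.7, 1145 and 996 CPM and 265, 217 and 344 CPM. In bulk RNA, fewer cells of a type and less RNA per cell cannot be told apart. Mir144 and Mir451a had 0 counts in each library, so the deletion could not be checked in these counts.

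The mature strands of the deleted microRNAs are shown with their seeds, the bases through which microRNAs most often pair with mRNAs. Sequences are from RefSeq on GRCm38.p6, 5′ to 3′, with the seed (bases 2 to 8) in capitals, and all come from the plus strand of chromosome 11 between 78073010 and 78073207.
miR-144-5p: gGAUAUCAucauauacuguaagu
miR-144-3p: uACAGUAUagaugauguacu
miR-451a: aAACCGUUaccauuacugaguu
The 3 seeds differ from each other. The exact complements of the seeds (TGATATC for miR-144-5p; ATACTGT for miR-144-3p; AACGGTT for miR-451a) were searched on the mRNA strand of the longest annotated 3′-UTR of each cytokine (GENCODE M21, GRCm38). None of the 10 3′-UTRs, between 135 and 1668 nt long, held any of the complements. Among 11550 tested genes with a 3′-UTR, of median length 1183 nt, the complements were found in 5.58% for miR-144-5p, 13.4% for miR-144-3p and 1.91% for miR-451a. A missing match says only that these letters are absent from these 3′-UTRs, and other kinds of site and other parts of the mRNAs were not searched.

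AU-rich pentamers, ATTTA in DNA letters, were counted in the same 3′-UTRs, overlapping matches included. Il6 held 10, Tnf 8, and Il12a, Il12b and Il10 held 6 each, against a median of 2 over all tested genes. Il1b held 4, Il15, Il18 and Tgfb1 held 1 each, and Il16 held 0. These counts depend on length, and the 3′-UTRs of Tgfb1, Il15 and Il18 were short (135, 282 and 334 nt). Per kb of 3′-UTR they held 7.41, 3.55 and 2.99 pentamers, against 1.79 per kb for the 11550 3′-UTRs searched. Among the cytokines, Il16 alone lay below that value. The longer motif TTATTTATT occurred in the 3′-UTRs of Tnf, 5 times, and of Il12a, once, and was found in 8.23% of all those searched. The first match in Tnf and the match in Il12a are printed with flanking bases, and with the motif, which contains the pentamer, in capitals. The printed stretches lie at chr17:35199689-35199717 (minus strand) and chr3:68698436-68698464 (plus strand).
Tnf: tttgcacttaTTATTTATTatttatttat
Il12a: ctatttatatTTATTTATTttctatttat
The matches in Tnf overlapped and followed each other between positions 438 and 468 of the 764-nt 3′-UTR.

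Levels were first compared between the cytokines per kb of annotated exon. By this length Il1b was the highest of the 10 in each library, at 69.0 ± 20.7 CPM per kb in WT against 75.3 ± 27.2 CPM per kb in KO (SD of 3 libraries each). Tgfb1 came second in 6 of 6 libraries, with 42.9 ± 1.33 CPM per kb in WT against 48.2 ± 9.09 CPM per kb in KO. Il16 followed in 6 of 6 libraries, with 35.2 ± 1.98 CPM per kb in WT against 34.0 ± 1.11 CPM per kb in KO. These 3 mRNAs made up between 87.6% and 91.1% of the summed level of the 10 cytokines. The order of Il1b and Tgfb1 depended on the length used. Per kb of the transcript whose 3′-UTR was searched, 1356 nt for Il1b and 2175 nt for Tgfb1, Il1b was above Tgfb1 in 3 of 6 libraries, and the 3 mRNAs made up between 91.3% and 93.8%.
The other 7 lay far below. Tnf ranged from 3.41 to 7.02 CPM per kb over the 6 libraries, Il18 from 2.54 to 8.52, Il12a from 2.11 to 3.46, Il12b from 1.39 to 3.78 and Il15 from 1.04 to 2.92 CPM per kb. Neighbours in this order changed places between libraries: Tnf was above Il18 in 4 of 6, Il18 above Il12a in 5 of 6, Il12a above Il12b in 3 of 6 and Il12b above Il15 in 4 of 6. Per kb of transcript these were 3, 5, 5 and 2 of 6. Il10, at most 0.825 CPM per kb, and Il6, at most 0.761 CPM per kb, were the lowest, and Il10 was above Il6 in 5 of 6 libraries.

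**Figure D1:**
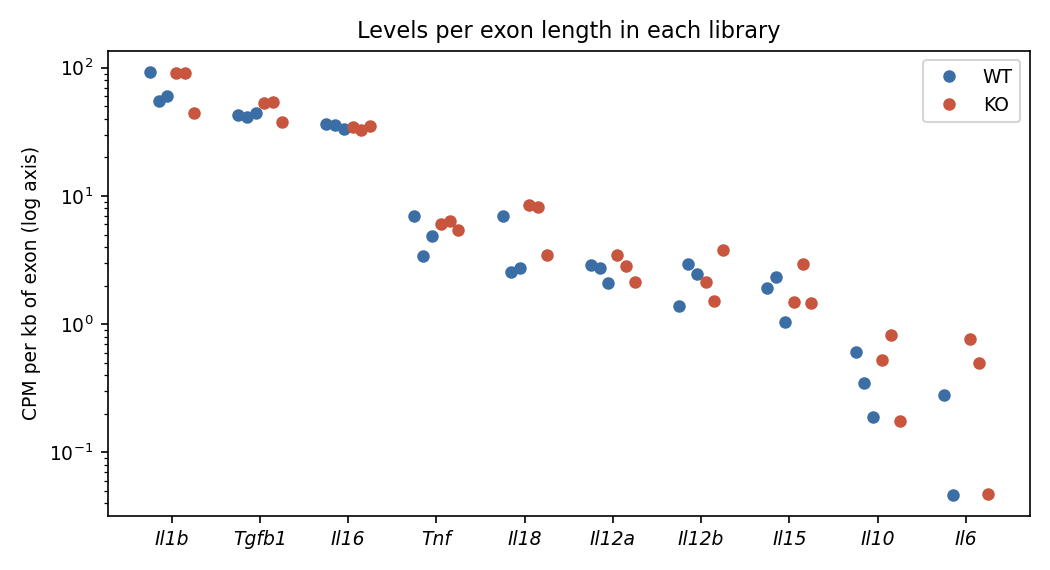
CPM per kb of exon (log axis) of the 10 cytokines, with 1 point for each of the 3 WT and 3 KO libraries; Il6 in WT3 is at 0 and cannot be drawn. Il1b, Tgfb1 and Il16 lie between 32.8 and 92.7, and no other cytokine passes 8.52.

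Of the IL-1 family, Il1b (ENSMUSG00000027398, chr2:129364570-129371139, minus strand) had 1553, 916 and 919 counts in WT1 to WT3 and 1491, 1457 and 733 counts in KO1 to KO3. These were 177, 104 and 114 CPM in WT against 172, 175 and 83.8 CPM in KO libraries. WT1, KO1 and KO2 were high, the other 3 were low, and the lowest library was a KO. The fold change of KO over WT on the log2 scale was 0.13 (standard error 0.30, 95% interval from -0.56 to 0.81; Benjamini-Hochberg adjusted p = 0.946 in the quasi-likelihood test of edgeR). The sign was negative in 3 of the 6 fits that left out a library. With B cell markers as a covariate, chosen after the data were seen, the log2 fold change was -0.17 (standard error 0.083, unadjusted p = 0.070, adjusted p = 0.72 from the same edgeR test).
Il18 (ENSMUSG00000039217, chr9:50554827-50581840, plus strand) had 63, 23 and 23 counts in the WT libraries against 76, 71 and 31 counts in the KO libraries. These were 7.17, 2.62 and 2.85 CPM in WT against 8.78, 8.52 and 3.54 CPM in KO. The libraries separated as for Il1b, with WT1 close to KO1 and KO2, and KO3 close to WT2 and WT3. Il18 had the largest log2 fold change among the 8 cytokines tested, 0.72 with a standard error of 0.48 and an interval from -0.40 to 1.83 (adjusted p = 0.83 from the same edgeR test). Without WT1 it was 1.34 (unadjusted p = 0.0209, adjusted p = 0.503 from the same edgeR test), and without KO3 it was 1.01 (unadjusted p = 0.0463, adjusted p = 0.345 from the same edgeR test). In the other fits with 1 library left out it was lower than reported, between 0.46 and 0.54. With B cell markers as a covariate it was 0.35, below the value of 0.37 for Il12b in the same fit. In the fits without WT1 and without KO3, the unadjusted p-value was under 0.05 for 9.25% and 14.1% of all tested genes.

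Tnf (ENSMUSG00000024401, chr17:35199381-35202007, minus strand) encodes TNF-α, which macrophages, DCs and T cells can produce. Its counts were 101, 49 and 64 in the WT libraries against 85, 87 and 78 in the KO libraries, or 11.5, 5.58 and 7.93 CPM in WT and 9.82, 10.4 and 8.91 CPM in KO. All 3 KO values lay within the WT range, and KO libraries spread less (SD 0.768 CPM against 2.98 CPM in WT). The fitted KO minus WT difference was 0.22 on the log2 scale (standard error 0.27, 95% interval from -0.40 to 0.85, adjusted p = 0.893 from the same edgeR test).
Il6 (ENSMUSG00000025746, chr5:30013114-30019981, plus strand) did not pass edgeR's filter on low counts. It had 6, 1 and 0 counts in the WT libraries against 16, 10 and 1 counts in the KO libraries. The 3 WT libraries together held 7 counts, with an exact Poisson interval for counting error from 2.81 to 14.4, and the 3 KO libraries held 27, with an interval from 17.8 to 39.3. The counts came from WT1, KO1 and KO2 for the most part, while WT2 and KO3 had 1 count each, WT3 had none (the 95% limit for a count of 0 is 3.69), and the genotypes overlapped. In the fit without a filter, Il6 stood at a log2 fold change of 1.88 (standard error 1.04, unadjusted p = 0.0933, adjusted p = 0.814 from the same edgeR test). With 1 library left out, Il6 passed the filter in 4 of the 6 fits, in each through its counts in KO1 and KO2, so these fits give no test of it. As a description, the log2 fold change in them was 3.85 without WT1, 2.41 without KO3, 1.54 without WT2 and 1.35 without WT3.

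IL-12 requires both of its chains, and the mRNAs of the chains differed in their pattern across libraries. Il12a (ENSMUSG00000027776, chr3:68690644-68698547, plus strand) had 43, 41 and 29 counts in the WT libraries against 51, 40 and 32 counts in the KO libraries, or 4.90, 4.67 and 3.59 CPM and 5.89, 4.80 and 3.66 CPM. Il12b (ENSMUSG00000004296, chr11:44400063-44414033, plus strand), whose p40 chain is also part of IL-23, had 24, 51 and 39 counts in the WT libraries against 36, 25 and 65 counts in the KO libraries. In CPM this was 2.73, 5.81 and 4.83 in WT and 4.16, 3.0004 and 7.43 in KO. The ratio of Il12b to Il12a per kb was 0.483, 0.61 and 0.54 in WT1, KO1 and KO2 and 1.08, 1.16 and 1.76 in WT2, WT3 and KO3. Il12b was thus lowest in the libraries where Il1b was highest. The log2 fold change was 0.12 for Il12a (standard error 0.28, interval from -0.52 to 0.77, adjusted p = 0.944 from the same edgeR test) and 0.13 for Il12b (standard error 0.41, interval from -0.82 to 1.08, adjusted p = 0.958 from the same edgeR test). Without KO3 the value for Il12b was -0.33. Il23a, the p19 chain that joins p40 in IL-23, had between 0 and 2 counts in each library.

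Il15 (ENSMUSG00000031712, chr8:82331632-82403222, minus strand) had 38, 46 and 19 counts in the WT libraries against 29, 55 and 29 counts in the KO libraries, or 4.33, 5.24 and 2.35 CPM in WT and 3.35, 6.60 and 3.31 CPM in KO. Its highest library was KO2, its lowest was WT3, and the order of the libraries differed from that of Il1b. Fitted on the log2 scale, KO minus WT was 0.15 (standard error 0.40, 95% interval from -0.78 to 1.08, adjusted p = 0.95 from the same edgeR test).
Il16 (ENSMUSG00000001741, chr7:83642825-83745726, minus strand) was the most even of the 10. It had 2535, 2483 and 2093 counts in the WT libraries against 2346, 2147 and 2398 counts in the KO libraries, or 289, 283 and 259 CPM and 271, 258 and 274 CPM. The highest library was 1.12-fold above the lowest. On the log2 scale KO minus WT was -0.049 (standard error 0.084), and its interval, from -0.24 to 0.14, was the narrowest of the 8 (adjusted p = 0.924 from the same edgeR test). Exons of Stard5 on the opposite strand cover 15.3% of the exon bases of Il16, and since it is not stated whether counting used strand, reads in the shared stretch cannot be assigned with certainty. Stard5 had between 115 and 133 CPM.

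Among the restraining cytokines, Il10 (ENSMUSG00000016529, chr1:131019845-131024974, plus strand) was too low to compare, with 7, 4 and 2 counts in the WT libraries against 6, 9 and 2 counts in the KO libraries. The sums were 13 counts in WT (exact Poisson interval from 6.92 to 22.2) and 17 counts in KO (interval from 9.9 to 27.2), and these intervals overlapped.
Tgfb1 (ENSMUSG00000002603, chr7:25687002-25705077, plus strand) had 1902, 1836 and 1796 counts in the WT libraries against 2299, 2273 and 1663 counts in the KO libraries. In CPM this was 217, 209 and 222 in WT and 266, 273 and 190 in KO. WT libraries lay close together (SD 6.68 CPM), KO1 and KO2 were above all of them, and KO3 was below all of them. For KO minus WT, the log2 value was 0.17 (standard error 0.14, 95% interval from -0.15 to 0.49, adjusted p = 0.864 from the same edgeR test). Without KO3 it was 0.30 (unadjusted p = 0.0126, adjusted p = 0.226 from the same edgeR test), again against 14.1% of all tested genes at an unadjusted p-value under 0.05. That was the highest value with 1 library left out. The log2 value for Tgfb1 was 0.082 without KO1, 0.077 without KO2 and 0.063 with B cell markers as a covariate.

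**Figure D2:**
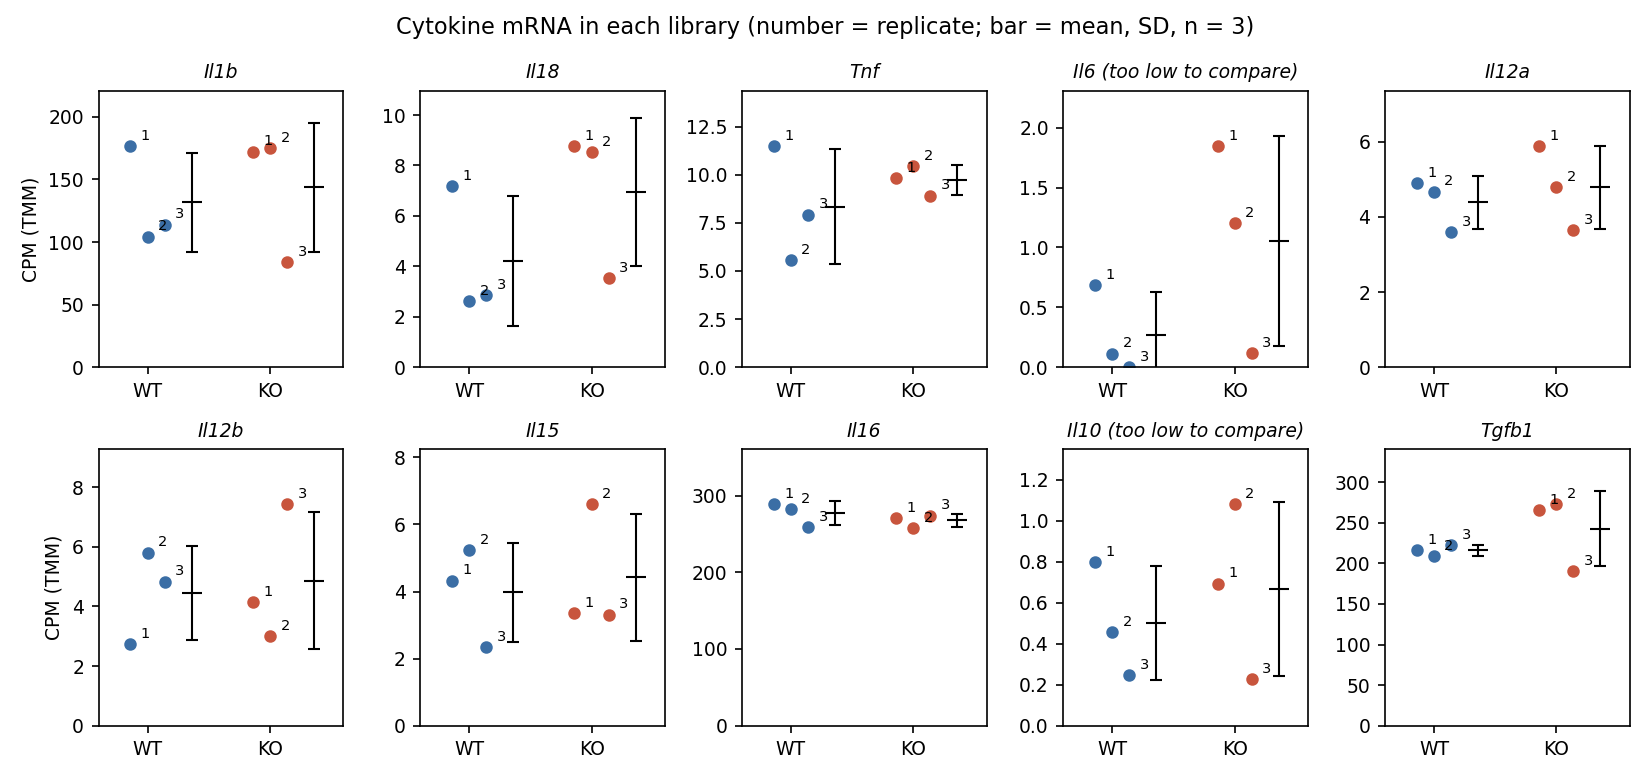
CPM (TMM-scaled) of each cytokine in the 3 WT and 3 KO libraries; points are libraries with their replicate number, and the bar beside them gives the mean and SD. Each panel has its own axis from 0, and the WT and KO points overlap in all 10 panels.

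Across the 8 cytokines tested, 0 had an adjusted p-value under 0.05 and 0 had an unadjusted p-value under 0.05 in edgeR's test. Over all 13024 tested genes, 0.0307% passed the adjusted threshold (0.0154% higher and 0.0154% lower in KO) and 6.25% had an unadjusted p-value under 0.05 (4.14% higher and 2.11% lower). With DESeq2 and with limma voom the numbers for the 8 cytokines were also 0. WT and KO ranges overlapped for all 8, whereas 11.5% of all tested genes did not overlap. The log2 fold change was above 0 for 7 of 8, with a median of 0.14, against 50.6% of all tested genes with a median of 0.0030. These values were not stable: 4 of 8 were above 0 with a median of 0.030 with B cell markers as a covariate, and 5 or 6 of 8 were above 0 with 1 library left out, with medians from 0.092 to 0.28, the highest without KO3. The intervals reached a log2 value of 0.81 for Il1b and 1.83 for Il18, and log2 values up to these lay within the intervals. An exact two-sided permutation test of the CPM gave p-values between 0.2 and 1 over the 8 cytokines tested. The smallest possible value is 0.1, so this test could not have reached 0.05.

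**Figure D3:**
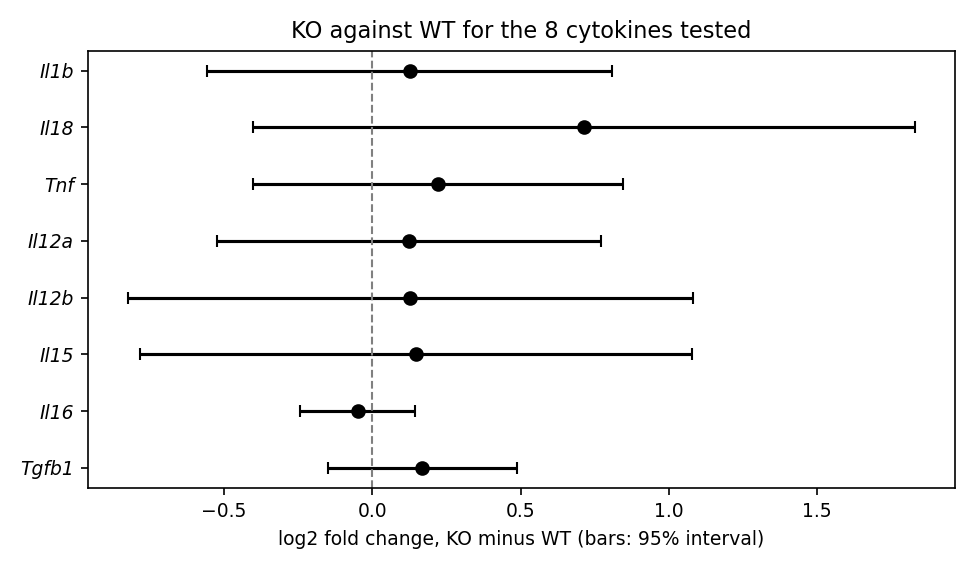
Log2 fold change of KO minus WT for the 8 cytokines tested, with bars for the 95% interval from edgeR. Each interval includes 0, from the narrow one of Il16 to the wide one of Il18.

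Several cytokines were high or low in the same libraries as markers of cell types other than CD8+ T cells. Relative to their mean over the 6 libraries on the log2 scale, Il1b stood at 0.36, 0.32 and 0.35 in WT1, KO1 and KO2 and at -0.40, -0.27 and -0.72 in WT2, WT3 and KO3. The sum of 6 neutrophil markers stood at 0.52, 0.56 and 0.80 and at -1.21, -1.50 and -0.83 in the same libraries, and the sum of 5 B cell markers at 0.30, 0.36 and 0.52 and at -0.45, -0.50 and -0.70. The sum of 6 monocyte and macrophage markers, led by Lyz2 and Ly6c2, ranged from 1066 to 1160.3 CPM in WT2, WT3 and KO3 and from 1720.3 to 1872 CPM in WT1, KO1 and KO2. Ly6c2 did not follow this division, with its lowest values in KO1 and KO2 (319 and 295 CPM) and its highest in KO3 (541 CPM). The log2 fold change was above 0 for 5 of these 6, and Csf1r (0.80) and Adgre1 (0.83) had unadjusted p-values of 0.0446 and 0.0444 in edgeR's test (adjusted p = 0.786 for each), where 6.25% of all tested genes were under 0.05. Il18 was high and low in the same libraries as Il1b.
Il12b was highest in KO3, as were Xcr1 and Clec9a, receptors that mark CD8a+ conventional DCs. Xcr1 had 33.6 CPM in KO3 and between 15.4 and 25.3 CPM in the other libraries, and Clec9a had 38.9 CPM against 16.7 to 24.1 CPM. Among WT libraries, Il12b and Xcr1 were highest in WT2 and Clec9a in WT3. Of the other 4 conventional DC markers, Flt3 and Zbtb46 were also highest in KO3, whereas Itgax and Batf3 were highest in KO2, where Il12b stood at -0.64 and the summed conventional DC markers at 0.16. The summed T cell markers had the same sign as Il12b in each library, below their mean in WT1, KO1 and KO2 and above it in WT2, WT3 and KO3. The sum of 6 conventional DC markers, with Itgax and Flt3 the most abundant, was 188 to 205 CPM in WT and 229 to 255 CPM in KO libraries, with no overlap. Taken singly, 2 of the 6 did not overlap, against 11.5% of all tested genes. The log2 fold change was above 0 for all 6, and the unadjusted p-value was under 0.05 for 3 of them, where the share over all tested genes was 6.25%. None passed the adjusted threshold (smallest adjusted p = 0.519, Flt3, from the same edgeR test). A shared direction was not particular to these markers. Log2 fold changes were also above 0 for all 6 neutrophil, all 5 B cell and all 4 erythroid markers, and below 0 for all 7 T cell markers. No listed marker was at 0 in all libraries. Plasmacytoid DC markers (Bst2 and Tcf4 first) ranged from 127 to 172 CPM, NK cell markers (Klrk1 and Klrb1c first) from 59.7 to 106 CPM, platelet markers (Itga2b and Ppbp first) from 6.86 to 12.4 CPM, and erythroid markers (Hbb-bs and Hba-a1 first) from 117 to 1537 CPM. The part of these cell types in the cytokine values was not tested.

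**Figure D4:**
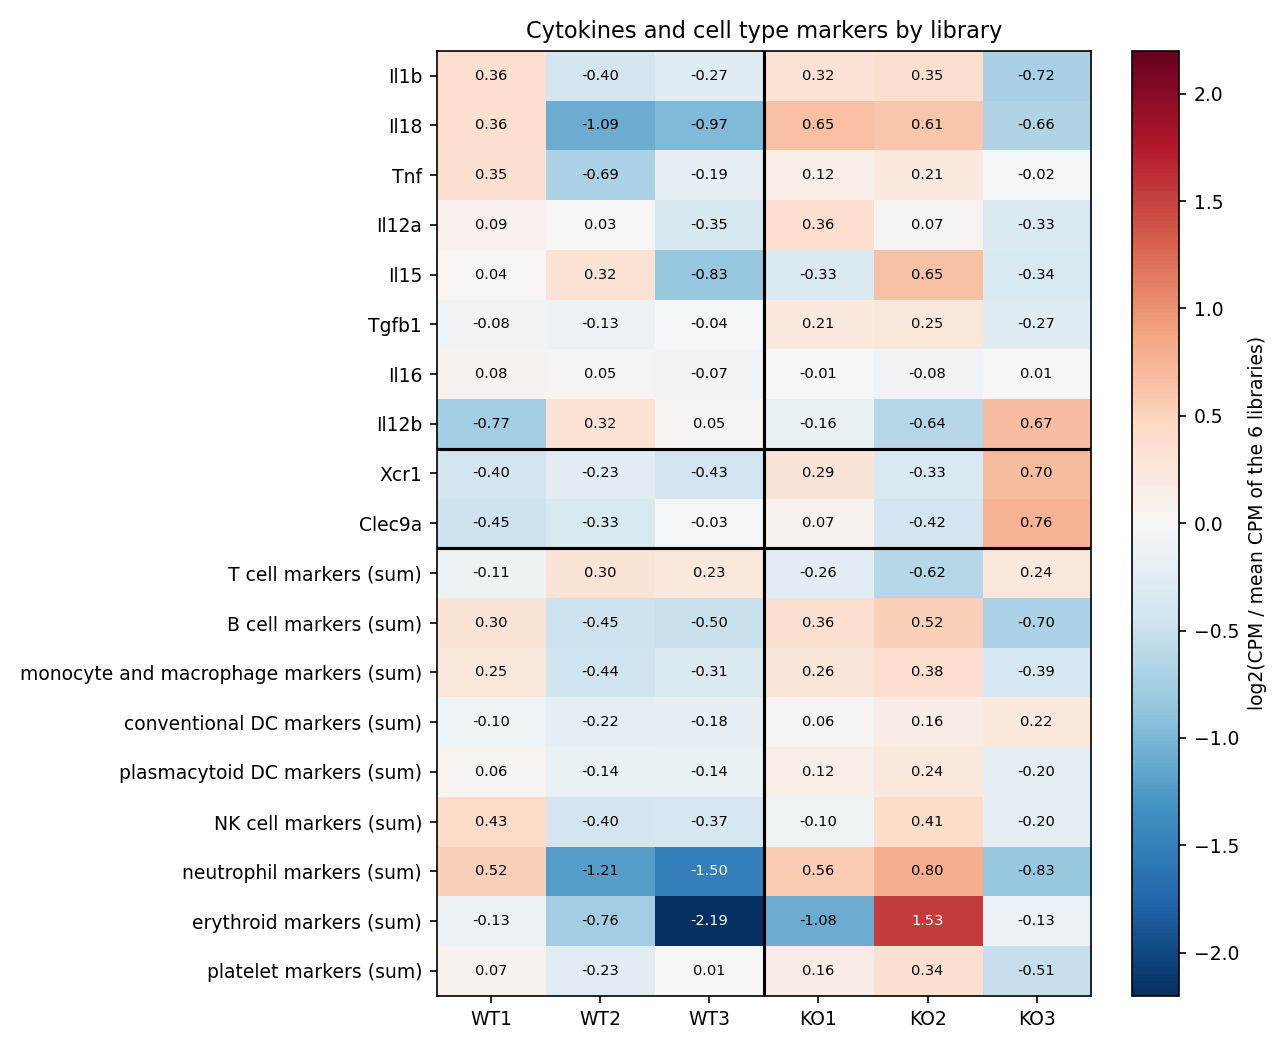
Log2 of CPM over the mean CPM of the 6 libraries, for the 8 cytokines tested, for Xcr1 and Clec9a, and for the summed markers of 9 cell types; red is above and blue below the mean. Il1b and Il18 are above their mean in WT1, KO1 and KO2, as are B cell and neutrophil markers, and Il12b is highest in KO3 at 0.67.

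Genes that act with the cytokines were followed in 5 lists. Of 20 receptor genes, 19 could be tested and 0 passed the adjusted threshold, with 14 log2 fold changes above 0 and 5 below 0 (median 0.064). The most abundant were Il2rg, the common γ chain used by the IL-15 receptor, with 526 ± 22.2 CPM in WT against 439 ± 55.2 CPM in KO (SD of 3 libraries each), Tgfbr2, a TGF-β receptor chain, with 355 ± 8.65 and 340 ± 3.77 CPM, and Il2rb, which IL-15 also uses, with 330 ± 27.8 and 336 ± 112 CPM. Il2rg was the only receptor with an unadjusted p-value under 0.05 (log2 fold change -0.26, adjusted p = 0.786 from the same edgeR test). WT and KO ranges did not overlap for 3 of the 19, against 11.5% of all tested genes.
For maturation and release, 12 of 14 genes could be tested and 0 passed, with 6 log2 fold changes above and 6 below 0 (median 0.0065). Casp8, Adam17, which sheds TNF-α from the cell surface, and Furin, which cuts the TGF-β1 precursor, were the most abundant, and their log2 fold changes were -0.10, 0.040 and -0.067. Casp1 and Nlrp3 of the inflammasome had log2 fold changes of 0.10 and 0.36, with adjusted p-values of 0.947 and 0.87 from the same edgeR test. Both were chosen for display after their values were seen.

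Of 11 related ligands and antagonists, 7 could be tested and 0 passed, with a median log2 fold change of 0.11. Ltb, encoding lymphotoxin β of the TNF family, had 435, 482 and 566 CPM in WT against 397, 339 and 422 CPM in KO libraries. These did not overlap (log2 fold change -0.36, unadjusted p = 0.024, adjusted p = 0.769 from the same edgeR test). Sigirr, an inhibitory receptor of the IL-1 family, had a log2 fold change of -0.25 and Lta of -0.10. The other 4 tested genes had values above 0: Il18bp, which binds and blocks IL-18, at 0.57, Tgfb3 at 0.73, Il1rn, the IL-1 receptor antagonist, at 0.21 and Ebi3 at 0.11. Il18bp had 6.49, 3.99 and 5.95 CPM in WT against 8.09, 9.36 and 6.97 CPM in KO libraries, without overlap (unadjusted p = 0.0545, adjusted p = 0.786 from the same edgeR test). Ltb and Il18bp were the 2 of 7 without overlap, where the share over all tested genes was 11.5%. Only Ltb had an unadjusted p-value under 0.05 in that test, where the share was 6.25%. Il1a, Il27, Tgfb2 and Il23a were too low to compare, and Il1a had 10, 3 and 4 counts in the WT libraries against 36, 20 and 7 counts in the KO libraries.
All 19 signal transducers could be tested and 0 passed, even at an unadjusted p-value under 0.05, with a median log2 fold change of -0.0062. Jak1 and Stat3, which carry the signals of several of these receptors, had log2 fold changes of -0.12 and -0.0031. All 13 feedback and mRNA decay genes could be tested and 0 passed, with 3 log2 fold changes above and 10 below 0 (median -0.083). Zfp36l2, Tnfaip3 and Zfp36, the most abundant of them, restrain cytokine mRNAs or NF-κB, and had log2 fold changes of -0.022, -0.062 and 0.26. Socs3, a feedback inhibitor of IL-6 signaling, had 139 ± 7.69 CPM in WT against 119 ± 12.3 CPM in KO (SD of 3 libraries each) without overlap (log2 fold change -0.23, unadjusted p = 0.0467, adjusted p = 0.786 from the same edgeR test). It was the only 1 of the 13 without overlap and the only 1 with an unadjusted p-value under 0.05. The shares over all tested genes were 11.5% and 6.25%.

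**Figure D5:**
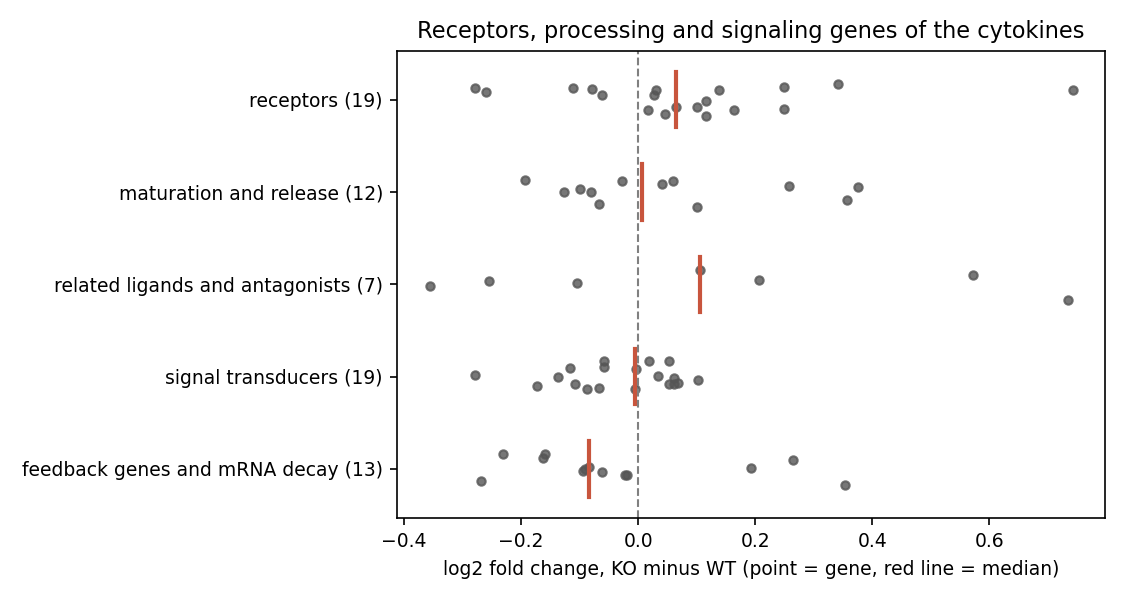
Log2 fold change of KO minus WT for each tested gene of the 5 lists, with the number tested in brackets; points are genes and red lines are medians. The medians lie between -0.083 and 0.11, and no gene passed the adjusted threshold.

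Among the 8 cytokines tested, Il18, Il15 and Il12b had the widest range of log2 CPM, and the genes most like each were found by Pearson's r of log2 CPM over the 6 libraries, as a description. For Il18 they were Ncr1, an NK cell receptor (r = 0.996), Klri2 (r = 0.995) and Fgl2 (r = 0.994). WT1, KO1 and KO2 were above the other libraries in each of these, and 4.61% of 13023 genes had an r of at least 0.9 with Il18, so that the likeness is shared by many genes. For Il15 they were 0610039K10Rik (r = 0.985), Rhd (r = 0.982) and Fam69a (r = 0.98), and 0.491% of genes reached 0.9. For Il12b they were Heatr1 (r = 0.994), Nup214 (r = 0.99) and B4galt7 (r = 0.988), and 1.6% of genes reached 0.9.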

How the data were processed

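RNA-seq of CD8a+ spleen leukocytes was analysed in 3 WT and 3 KO libraries. The authors deposited expected counts (estimated counts that need not be whole) for each Ensembl gene, without scaling for library size or gene length; the unit was read from the values. The submitters' processing notes name the builds GRCm38 and mm10, and the aligner, counter, annotation and use of strand are not given in the sources used here. Reads of similar or overlapping genes may therefore be divided in ways that change single counts. Nothing states whether same-group samples are separate animals beyond their titles, so p-values measure the spread between these samples.

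Counts were rounded and analysed in R 4.3.3 with edgeR 4.0.16 (TMM, filterByExpr set to at least 10 counts and a total of at least 15, quasi-likelihood test, Benjamini-Hochberg adjustment over 13024 genes at 0.05), after the script had been tested on simulated data. CPM use the library totals times the TMM factors. A gene under the filter was called too low to compare. Intervals on counts are exact Poisson intervals at 95% and cover counting error only. Genes were matched to GENCODE M21 (98.75% of identifiers). Alternatives were DESeq2 1.42.0, upper-quartile factors, limma 3.58.1 voom, no filter, a replicate block, each library left out in turn and, added after seeing the data, B cell markers as a covariate and the length of 1 transcript in place of all exon bases.

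The cytokines, lists and tests were chosen with earlier results of these data known. The rule for naming genes took all 10 cytokines, the called and the 3 most abundant genes of each pathway list, the called and the 2 most abundant of each marker list with Cd3e, Cd8a, Lyz2, Itgax and Xcr1, and the 3 genes with the highest r to each of 3 cytokines. Casp1, Nlrp3, Socs3, Il1a, Il23a, Il18bp, Il1rn, Ebi3, Tgfb3, Csf1r, Adgre1, Batf3, Zbtb46, Clec9a and Stard5 fall outside the rule and were named after their values were seen. Some genes that the rule takes are not reported here.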

Additional observations from a re-analysis of the deposited data

How the results depend on the processing

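None of the 8 cytokines was called under any of the 12 alternatives, and their adjusted p-values were 0.226 or above in all of them. Of 96 values, 83 kept the direction reported and 13 did not. With 1 library left out, the log2 fold change ranged from -0.045 to 0.40 for Il1b, from -0.0020 to 0.53 for Tnf, from -0.072 to 0.26 for Il12a, from -0.33 to 0.38 for Il12b and from -0.26 to 0.39 for Il15, while Il18 (0.46 to 1.34), Tgfb1 (0.077 to 0.30) and Il16 (-0.11 to -0.020) kept their sign. With B cell markers as a covariate, chosen after the data were seen, it was -0.17 for Il1b, -0.0039 for Il12a, -0.019 for Il15 and 0.35 for Il18, which was reported at 0.72. The number of genes called, 4 as reported, was 58 with DESeq2, 12 without a filter, 9 with the replicate block and 30 with the covariate, and ranged from 2 to 94 with 1 library left out, 94 being without KO3. The block rests on replicate numbers in the titles only. Deviations of same-numbered libraries correlated at -0.0066, -0.22 and 0.13 over genes, so the numbers were not taken to pair the samples, and with the block the log2 fold changes were 0.090 for Il1b, 0.27 for Tnf and 0.76 for Il18. With 1 library left out, the list medians ranged from 0.033 to 0.14 (receptors), from 0.0024 to 0.37 (related ligands and antagonists), from -0.081 to -0.018 (signal transducers), from -0.081 to 0.092 (maturation and release) and from -0.12 to -0.032 (feedback and mRNA decay), and the covariate gave -0.18 for related ligands and antagonists. Il1b was above Tgfb1 per kb in 3 libraries in place of 6 with the length of 1 transcript, an alternative also chosen after the data were seen. The cause of the moves was not tested. Il6 and Il10 had at most 16 and 9 counts in a library, and for Il6 the counting intervals of KO1 (9.15 to 26) and KO3 (0.0253 to 5.57) did not overlap.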
